A study of Ctenopharyngodon idella with 15 samples.

Results

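Gills of grass carp (Ctenopharyngodon idella), a freshwater fish, were compared between fish that stayed free of symptoms in mildly saline water and untreated fish. The 3‰-treated asymptomatic fish had been kept for 30 days in water brought to 3‰ with a commercial sea salt, and were recorded as healthy when the gill was taken. The study's histology nevertheless describes adhering lamellae and more plasma cells in 3‰ gills with and without symptoms, more so with symptoms. The untreated control fish were kept at 0‰ for the same time and were also recorded as healthy. All fish were 3 months old, and the study assigned fish at random to the 3 salinities, at the same pH and with water renewed about weekly. The labels write the salinity as 3%, and the 3‰ of the study's methods is used here. The comparison takes 6 of the 15 libraries of the series, 3 fish in each of these 2 groups, with 1 library per fish. The other 9 libraries are from 3‰-treated symptomatic, 6‰-treated asymptomatic and 6‰-treated symptomatic fish. Neither tank nor sequencing batch is given for single fish, so a difference between tanks cannot be told apart from a difference between salinities.

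The gill carries out gas exchange, ion uptake and nitrogen excretion in fish, and it is also a mucosal surface with resident immune cells. NOD-like receptors (NLRs) are cytosolic sensors with a NACHT domain and usually leucine-rich repeats. In bony fish the NLRC3-like genes form a large family of similar copies, many with a fish-specific domain (FISNA) ahead of the NACHT domain.

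The authors deposited the FPKM of 40116 genes per fish, that is, fragments on a gene relative to transcript length and to the total of the library. FPKM summed to between 764977 and 800868 in 3‰-treated asymptomatic fish and to between 775422 and 813471 in control fish. Between 28963 and 30047 genes were above 0 in 3‰-treated asymptomatic fish, and between 28982 and 29474 in control fish. The number of reads behind a value is not known, so no counting interval is given. FPKM is a share of the library, and in a bulk sample fewer cells of a type and less RNA per cell cannot be told apart. Gene names are used for 16 NLR genes, which the text of the study names beside their identifiers. The NLR genes that it names by a newGene number in infected fish, which were assembled separately, are not analysed here. Marker genes of gill cell types were not used here, so the labelled tissue was not checked and the cell composition of the samples was not compared.

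The difference between the 6 fish was first described over all tested genes, 24415 in number, whose FPKM averaged 0.5 or more over these fish. The distance between 2 fish was taken as the median over genes of the absolute difference in log2(FPKM + 1). The 3‰-treated asymptomatic fish lay close to each other, at distances of 0.229, 0.221 and 0.211. The control fish were farther apart, at 0.256 between replicates 1 and 2, 0.264 between replicates 2 and 3, and 0.384 between replicates 1 and 3. For the typical gene the SD on this scale was 0.192 among treated fish and 0.257 among control fish (medians over genes).

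Control replicate 3 was nearer to each treated fish than to either other control fish. Its distance to 3‰-treated asymptomatic replicates 1, 2 and 3 was 0.261, 0.259 and 0.232. These were slightly below its 0.264 to control replicate 2 and further below its 0.384 to control replicate 1. Control replicate 1 stood at the other end, at 0.431, 0.374 and 0.374 from the same treated fish. Control replicate 2 was between these, at 0.332, 0.281 and 0.277. The groups were therefore not separated from each other by these distances, and several of the counts below were different without control replicate 3.

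**Figure D1:**
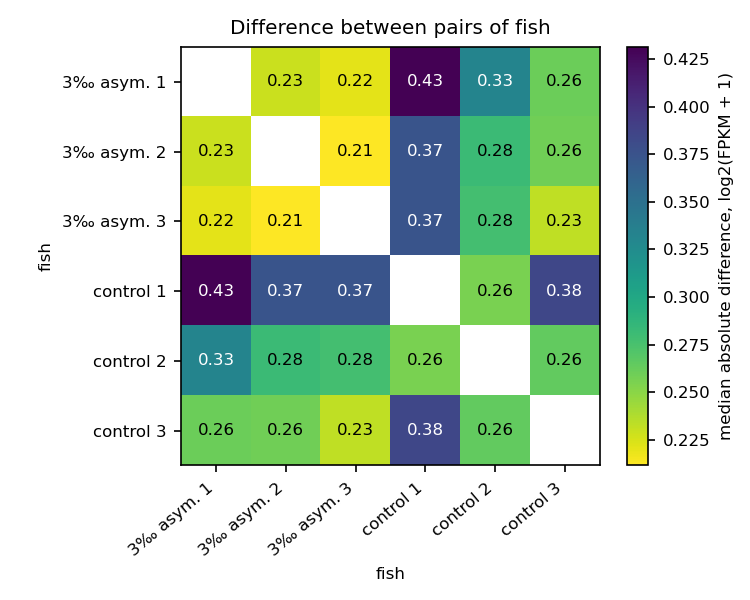
Median absolute difference in log2(FPKM + 1) over the 24415 tested genes for each pair of the 6 fish, with 3‰-treated asymptomatic fish before control fish on both axes. The 3 treated fish differ by 0.211 to 0.229, and control replicate 3 differs less from each of them than from control replicate 1.

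Genes changed at 3‰ without symptoms were counted with the threshold of the study, a change of 1.5-fold or more together with p below 0.05. The p was taken from limma on log2(FPKM + 1) over the 6 fish and is unadjusted, with the Benjamini-Hochberg adjusted p beside it. Of the 24415 genes, 1680 (6.88%) passed, 1259 (5.16%) up-regulated and 421 (1.72%) down-regulated in 3‰-treated asymptomatic fish. The study's own counts at this threshold had fewer DEGs and directions nearer to even. Its p need not come from the same test, nor its fold change from the same scale or set of genes. After adjustment in limma 2 genes (0.00819%) had a p below 0.05, and 3211 had an unadjusted p below 0.05. The third lowest adjusted p was 0.0596. With 3 fish against 3, an exact permutation test of 1 gene cannot give a p below 0.1.

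Most of these changes were moderate. The median log2 fold change was 0.77 for up-regulated and -0.76 for down-regulated DEGs, against a median of 0.10 over all tested genes. A fold change of at least 2 was reached by 280 up-regulated and 104 down-regulated DEGs, one of at least 4 by 49 and 11, and one of at least 8 by 14 and 3. In 1465 of the 1680 DEGs every treated fish lay on the same side of every control fish. That was so for 5144 genes, or 21.1%, of all tested genes. The DEGs were called on the values of these same fish, so the share among them is a description only.

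The excess of up-regulated over down-regulated DEGs depended on how the libraries were scaled. With median-ratio scaling of the libraries, 867 genes were up-regulated and 673 down-regulated, and after quantile normalization the counts were 738 and 750. The median log2 fold change of all tested genes was 0.10 as deposited, 0.01 after median-ratio scaling and 0.00 after quantile normalization. The values as deposited thus carry a median shift of 0.10 toward the treated fish, and the direction counts are relative to it. The shift was not uniform, with a median of 0.15 for genes with a mean FPKM of 1 to 10 and -0.06 above 100 FPKM.

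Single fish moved the number of DEGs. Without control replicate 3 it was 3466, with 2413 up-regulated and 1053 down-regulated. Leaving out any other fish gave between 1279 and 1837 DEGs. The DEGs that passed with all 6 fish and also with each fish left out in turn numbered 601 (35.8%), 465 up-regulated and 136 down-regulated.

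**Figure D2:**
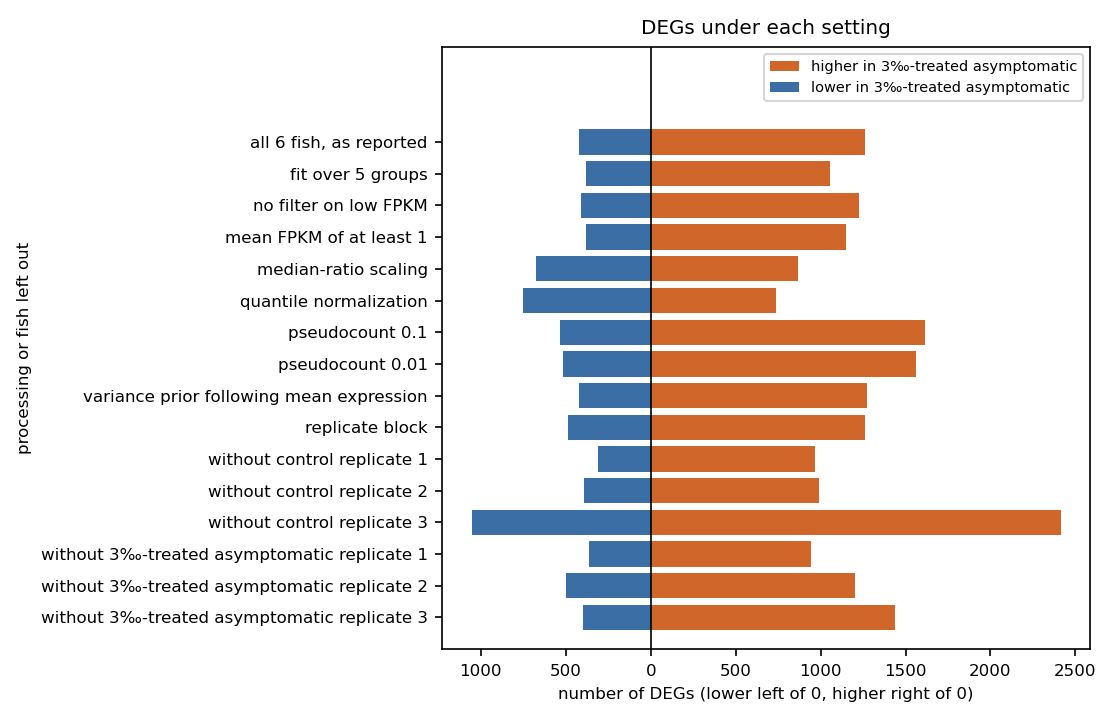
Number of DEGs between 3‰-treated asymptomatic and control fish as reported, under each other processing and without each fish, with up-regulated genes to the right of 0 and down-regulated genes to the left. The bar without control replicate 3 is the longest, with 2413 up-regulated and 1053 down-regulated DEGs, and the bars for median-ratio scaling and quantile normalization are the ones nearest to an even split.

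The order of the control fish within the DEGs followed the distances between the fish. These values come from the same fish as the calls and are given as a description. Among the 1259 up-regulated DEGs control replicate 3 was the highest control fish in 58.5%, against 43.0% of all tested genes, and control replicate 1 was the lowest in 57.4%, against 41.1%. Among the treated fish, replicate 1 was the highest in 54.0% of up-regulated DEGs, against 36.6% of all tested genes. Among the 421 down-regulated DEGs control replicate 3 was the lowest control fish in 58.2%, against 33.3% of all tested genes. In these DEGs treated replicate 2 was the highest treated fish in 48.5%, against 36.1% of all tested genes. The median FPKM of the up-regulated DEGs was 8.04, 7.23 and 6.72 in treated replicates 1, 2 and 3, against 2.82, 3.26 and 3.99 in control replicates 1, 2 and 3. For the down-regulated DEGs it was 3.85, 4.65 and 3.89 in treated fish, against 10.2, 9.08 and 7.49 in control fish. In both directions control replicate 3 was the control fish nearest to the treated fish. The treated fish nearest to the control fish by median FPKM was replicate 3 in the up-regulated DEGs and replicate 2 in the down-regulated DEGs.

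The share of DEGs and their direction varied with expression level and with the kind of gene model. Among the 2483 genes with a mean FPKM of 0.5 to 1, 5.68% were DEGs, 101 up-regulated and 40 down-regulated. Of 10978 genes with a mean FPKM of 1 to 10, 8.96% were DEGs, 773 up-regulated and 211 down-regulated. Of 9969 genes with a mean of 10 to 100, 5.18% were DEGs, 368 up-regulated and 148 down-regulated. Among the 985 genes above 100 FPKM the direction was close to even, with 17 up-regulated and 22 down-regulated (3.96%). Genes listed by a genome locus and genes listed by a newGene number were called about equally often, in 6.84% of 20908 and 7.10% of 3507. The directions differed in number, with 1145 up-regulated and 286 down-regulated at genome loci, and 114 up-regulated and 135 down-regulated among newGene numbers. The median log2 fold change was 0.11 for the first kind and -0.01 for the second.

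The 2 genes with an adjusted p below 0.05 were genes listed at 0 in every control fish. They are named because they are so few, after their values were seen, and neither has a gene name in the sources used here. The gene at scaffold CI01000019, from 2543565 to 2552300, had 10.3, 8.53 and 11.1 FPKM in 3‰-treated asymptomatic fish, against 0, 0 and 0 in control fish (limma, adjusted p = 0.00244). It was also listed at 0 in 5 of the 9 other treated fish, while 6‰-treated symptomatic replicate 1 had 10.6 FPKM. It was therefore detected in all fish of only the 3‰-treated asymptomatic group among the 5 groups.

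The gene at scaffold CI01000039, from 390881 to 400543, had 5.68, 5.61 and 5.80 FPKM in 3‰-treated asymptomatic fish, against 0, 0 and 0 in control fish (limma, adjusted p = 0.00244). It had 5.41, 4.78 and 5.13 FPKM in the 6‰-treated asymptomatic fish, and 5.75 FPKM in 6‰-treated symptomatic replicate 1. It was listed at 0 in the other 6‰-treated symptomatic fish and in all 3‰-treated symptomatic fish, so every fish in which it was detected had close to the same level. Neither gene kept an adjusted p below 0.05 in limma without control replicate 2 (0.0596 for both) or in a fit over the 5 groups (0.334 at CI01000019 and 0.192 at CI01000039). The same held in limma with the replicate number as a block (0.1 for both). No fold change is given for these genes, since a value of 0 can also be a failed estimate. The adjusted p rests on the same zeros, which show no spread among control fish. Both genes passed the filter on low FPKM through the treated fish alone.

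Over the whole list, 130 genes were at 0 in all control fish and above 0 in all 3‰-treated asymptomatic fish, and 63 showed the reverse. With at least 1 FPKM in every fish of the other group the numbers were 5 and 1. Large differences were also present within a group. Among genes that reached 10 FPKM in some fish of the group, 276 of 12386 had a range of at least 10-fold between 3‰-treated asymptomatic fish, and 213 of 11994 had one between control fish. A fish was at 0 in 116 of the first and in 79 of the second. The fish with the highest value was most often replicate 3 in both groups, in 130 of the 276 and in 105 of the 213. Over all tested genes replicate 3 was the highest treated fish in 27.3% and the highest control fish in 43.0%.

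Of the unnamed genes, the largest rises and falls were taken among DEGs above 0 in all fish and without overlap between the groups. The gene at scaffold CI01000027, from 7962587 to 7964571, had 2.79, 473 and 890 FPKM in 3‰-treated asymptomatic fish, against 1.46, 0.675 and 2.31 FPKM in control fish. One treated fish was close to the control level and the other two were far above it. Its log2 fold change was 5.61 ± 1.97 (SE, limma, adjusted p = 0.35). The unadjusted p exceeded 0.05 when any fish other than treated replicate 1 was left out, with log2 fold changes of 4.15 to 5.85. In the other treated groups it was high in single fish, at 617 FPKM in 6‰-treated asymptomatic replicate 2 and 29.1 FPKM in 6‰-treated symptomatic replicate 2, and between 0.771 and 2.99 FPKM in the remaining fish.

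The gene at scaffold CI01000300, from 1331788 to 1335474, had 115, 153 and 332 FPKM in 3‰-treated asymptomatic fish, against 4.88, 12.4 and 41.4 FPKM in control fish. All treated fish were above all control fish, and replicate 3 was the highest of both groups. The log2 fold change was 3.60 ± 0.75 (SE, limma, adjusted p = 0.289), and it passed the threshold without any one fish. The other treated groups were more mixed. This gene had 225, 194 and 13.9 FPKM with symptoms at 3‰, and 50.9, 9.31 and 49.3 FPKM without symptoms at 6‰. With symptoms at 6‰ it had 112, 16.5 and 1.47 FPKM. Some of these fish were within the control range, and the last was below it. Among the 20 genes with the largest rises by the same criteria, treated replicate 3 was the highest treated fish in 16, control replicate 3 was the highest control fish in 19, and both held in 15. Treated replicate 3 was the highest treated fish in 27.3% of all tested genes and in 21.4% of up-regulated DEGs. For control replicate 3 these shares were 43.0% and 58.5%. The order of the treated fish in these 20 genes is therefore not that of the up-regulated DEGs in general. Control replicate 3 was most often the highest control fish in both. None of these 20 has a name in the sources used here.

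The gene at scaffold CI01000008, from 2639244 to 2640665, had 0.668, 0.429 and 1.92 FPKM in 3‰-treated asymptomatic fish, against 16.1, 31.7 and 21.9 FPKM in control fish. The log2 fold change was -3.61 ± 0.35 (SE, limma, adjusted p = 0.0994). It averaged 31.9 FPKM with symptoms at 3‰, 14.0 FPKM without symptoms at 6‰ and 19.0 FPKM with symptoms at 6‰, but 1 of the 6‰-treated asymptomatic fish was at 0.114 FPKM, below every 3‰-treated asymptomatic fish.

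The gene at scaffold CI01000069, from 3375220 to 3376645, had 2.47, 2.50 and 1.88 FPKM in 3‰-treated asymptomatic fish, against 15.1, 31.3 and 12.99 FPKM in control fish. The log2 fold change was -2.57 ± 0.33 (SE, limma, adjusted p = 0.202). In the other treated groups it averaged 13.3 FPKM with symptoms at 3‰, 0.651 FPKM without symptoms at 6‰ and 6.01 FPKM with symptoms at 6‰. The last mean was set by 1 fish, with 2.50, 14.2 and 1.34 FPKM in replicates 1, 2 and 3. Both falls passed the threshold with each fish left out in turn.

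**Figure D3:**
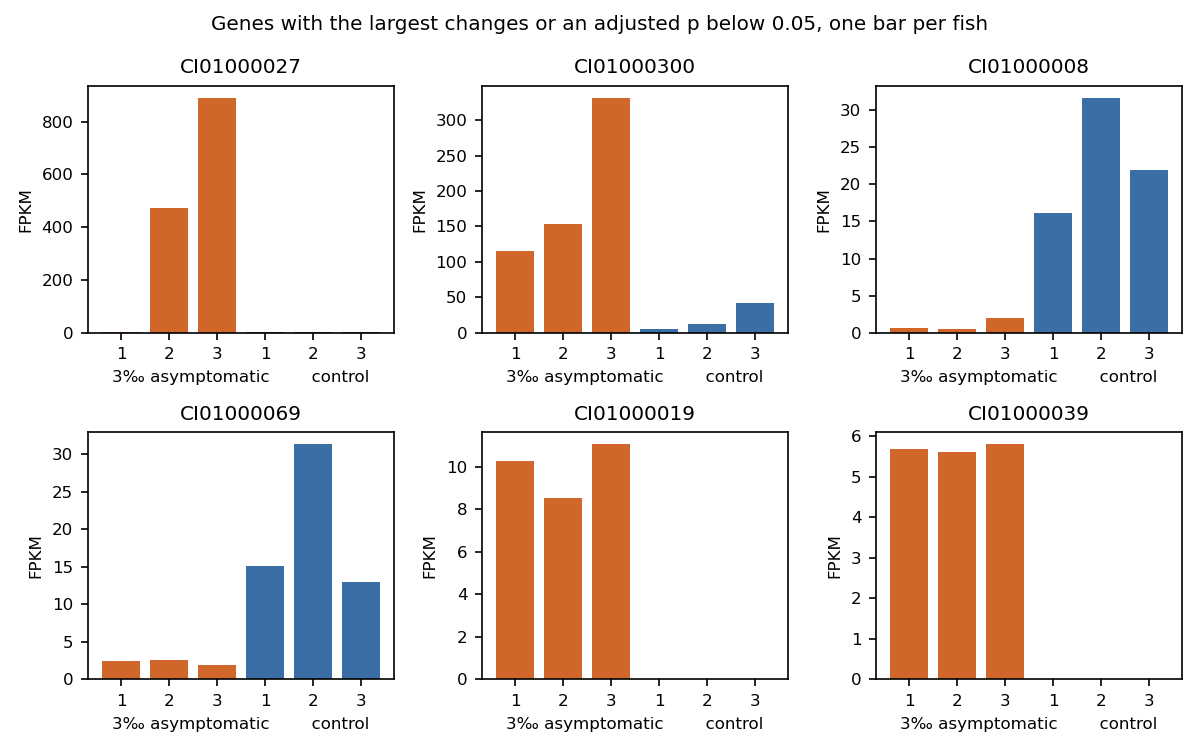
FPKM in each fish, with the 3 bars of 3‰-treated asymptomatic fish to the left of those of control fish, for the unnamed genes with the largest rises (CI01000027, CI01000300) and falls (CI01000008, CI01000069) and the genes with an adjusted p below 0.05 (CI01000019, CI01000039). Each panel has its own axis from 0. The gene at CI01000027 is high in 2 of the 3 treated fish, and the last pair has no bar in any control fish.

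Tested genes with a locus that passed the threshold in the same direction and followed each other along a scaffold were then looked for. Genes under the filter on low FPKM and newGene numbers were skipped, so members of a run need not adjoin. On CI01000017 the first gene of a run ended at 762518 and the next began at 1057310. Among 20908 tested genes with a genome locus there were 10 runs of at least 3 neighbours, 9 of them up-regulated and 1 down-regulated. Of these loci 6.84% were DEGs, 1145 up-regulated and 286 down-regulated, an excess that changed with scaling. How many runs such shares give in a random order was not estimated, so the runs are a description only. The longest held 4 genes on scaffold CI01000181, between 369265 and 477931. Its first gene had 6.90, 7.96 and 17.6 FPKM in 3‰-treated asymptomatic fish, against 0.198, 0.347 and 2.05 FPKM in control fish. The second had 20.003, 15.0 and 18.5 FPKM, against 0.519, 1.73 and 5.27 FPKM. In both, all treated fish were above all control fish, and control replicate 3 was the highest control fish.

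The third gene of this run was lower, with 2.93, 1.41 and 2.44 FPKM in treated fish, against 0.508, 1.46 and 0.852 FPKM in control fish, and its groups overlapped. The last had 8.33, 8.96 and 19.8 FPKM, against 0.180, 0.314 and 1.69 FPKM. The log2 fold changes in this order were 2.69, 2.66, 0.75 and 2.95, with limma adjusted p of 0.261, 0.263, 0.347 and 0.21. The third gene did not pass the threshold when control replicate 1 or 3 or treated replicate 1 or 3 was left out. The fish of the other treated groups were more spread. In 3‰-treated symptomatic fish the first gene had 22.4, 10.3 and 0.280 FPKM, and the second and last were likewise at the control level in replicate 3 alone, at 2.49 and 0.911 FPKM. The means of the first, second and last gene were 2.89, 4.77 and 2.73 FPKM without symptoms at 6‰, and 3.37, 7.41 and 3.40 FPKM with symptoms at 6‰. With symptoms at 6‰ replicate 1 had 9.08, 19.5 and 9.41 FPKM, and replicates 2 and 3 did not exceed the highest control fish.

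The down-regulated run lay on scaffold CI01000329, between 658011 and 664068, where 3 short gene models follow each other. The first had 0, 1.06 and 1.43 FPKM in 3‰-treated asymptomatic fish, against 3.07, 4.78 and 3.43 FPKM in control fish. The second had 0, 0.737 and 1.15 FPKM, against 1.49, 3.59 and 3.38 FPKM. The third had 1.30, 1.19 and 0.896 FPKM, against 5.53, 1.51 and 2.66 FPKM. The groups did not overlap in any of the 3, the third passed the threshold in only 1 of the 6 fits without a fish, and the log2 fold changes were -1.46, -1.25 and -0.88. Treated replicate 1 and control replicate 1 were the lowest of their groups in the first and second models, but the highest in the third. In 6‰-treated asymptomatic replicate 2 the 3 models had 0, 0.156 and 7.23 FPKM. The third thus did not follow the other models across the fish. Whether any of these close neighbours are parts of 1 transcript was not tested.

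Of the 16 NLR genes, 15 passed the filter on low FPKM and 0 were DEGs, in a comparison in which 6.88% of all tested genes were. At an unadjusted p below 0.05 in limma the count was also 0, and the lowest adjusted p was 0.388. The log2 fold change was above 0 in 11 and below 0 in 4, with a median of 0.19 beside 0.10 over all tested genes. Over all 24415 tested genes it was above 0 in 14884 and below 0 in 9531. The groups overlapped in all 15, while 21.1% of all tested genes were without overlap. An identifier gives the scaffold, start and end of a gene. The study picked 5 of the 16 as NLRC3-like genes with a complete open reading frame among genes raised by salinity in other groups of these same fish, compared with the same control fish. The other 11 were chosen for qRT-PCR in infected fish. NLRC3-like copies are similar in sequence, and the counting of reads shared by copies is not described in the study, so the values of single copies are uncertain.

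In 3 of the NLRC3-like genes with a complete open reading frame, treated replicate 3 was within or below the range of the control fish while the other treated fish were above it. CI01000057_04728914_04731946, had 16.8, 18.0 and 4.21 FPKM in 3‰-treated asymptomatic fish, against 2.08, 5.03 and 5.40 FPKM in control fish (log2 fold change 1.30 ± 0.56, SE, limma, adjusted p = 0.388). CI01000365_00436141_00445601, had 7.85, 4.13 and 0.959 FPKM, against 0.687, 0.771 and 1.59 FPKM in control fish (1.17 ± 0.54, limma, adjusted p = 0.401). CI01000437_00000063_00010815, had 21.7, 11.4 and 1.65 FPKM, against 2.15, 6.50 and 6.92 FPKM in control fish (0.66 ± 0.81, limma, adjusted p = 0.706). In each, replicates 1 and 2 exceeded every control fish and replicate 3 did not. Without treated replicate 3 all of these passed the threshold, with log2 fold changes of 1.90, 1.77 and 1.55. Without any other single fish none of them passed. Treated replicate 3 was singled out on these same values, so the fits without it are a description only.

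The other treated groups are set beside these levels without a test, since the same control fish serve all comparisons. CI01000365 averaged 4.31 FPKM in 3‰-treated asymptomatic fish, 10.1 FPKM with symptoms at 3‰, 9.01 FPKM without symptoms at 6‰, 8.98 FPKM with symptoms at 6‰, and 1.02 FPKM in control fish. CI01000057 averaged 12.998 FPKM in 3‰-treated asymptomatic fish, 14.8, 14.4 and 20.8 FPKM in the other treated groups in the same order, and 4.17 FPKM in control fish. CI01000437 averaged 11.6 FPKM in 3‰-treated asymptomatic fish, 9.90, 11.4 and 11.3 FPKM in the other treated groups, and 5.19 FPKM in control fish. Single fish set some of these means. Treated replicate 3 was far below the other 3‰-treated asymptomatic fish in each gene, and CI01000057 ranged between 3.43 and 39.5 FPKM among 6‰-treated symptomatic fish, so no order of the treated groups is read from them.

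The remaining NLRC3-like genes with a complete open reading frame were low. CI01000095_03598784_03614858, stayed under the filter, with 0.240, 1.99 and 0.114 FPKM in 3‰-treated asymptomatic fish, against 0.0710, 0.136 and 0.184 FPKM in control fish. Treated replicate 2 was far above the other fish, and the means of the other treated groups were 3.70, 4.77 and 2.74 FPKM. The gene newGene_5350 had 1.70, 2.11 and 0.936 FPKM, against 2.06, 1.48 and 1.95 FPKM in control fish, with a log2 fold change of -0.16 ± 0.21 (SE, limma, adjusted p = 0.738). Its means in the other treated groups were 1.39, 1.57 and 2.16 FPKM, beside 1.83 FPKM in control fish. Only the mean with symptoms at 6‰ was above control, with 3.71 FPKM in replicate 3. Whether this number means the same gene as in the study was not checked.

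Among the 11 NLR genes chosen on infected fish the largest difference was at NLRC3 CI01000397_00142266_00144610. It had 0.485, 9.77 and 0.451 FPKM in 3‰-treated asymptomatic fish, against 4.74, 8.64 and 10.8 FPKM in control fish (log2 fold change -1.61 ± 0.80, SE, limma, adjusted p = 0.429). Treated replicate 2 was within the range of the control fish and the other treated fish were below it. Without replicate 2 the gene passed the threshold, at -2.57. It did not pass without any other single fish, and replicate 2 was singled out on these same values. The means of the other treated groups were 4.23, 4.61 and 3.17 FPKM.

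The other 10 genes of this list, NLRC3, NLRP3-like and NLRP12 loci with mean levels of 1.07 to 13.3 FPKM, had log2 fold changes of -0.19 to 0.62, 8 above 0 and 2 below 0, with limma adjusted p of 0.526 to 0.936. The largest of these differences was at NLRC3 CI01000140_02095891_02110510, with 8.27, 15.7 and 6.65 FPKM in 3‰-treated asymptomatic fish, against 3.06, 8.56 and 7.37 FPKM in control fish. Its neighbour on the scaffold, NLRP12 CI01000140_02047275_02055290, had 1.39, 1.39 and 0.524 FPKM, against 0.786, 0.468 and 1.89 FPKM in control fish. NLRP12-like 2 at CI01000353, which the study cloned, had 3.46, 2.46 and 2.44 FPKM, against 1.499, 2.44 and 3.12 FPKM in control fish. The groups overlapped in each of these genes. NLRC3 CI01000433 was listed at 0 in control replicate 2 alone, beside 4.76 and 3.51 FPKM in the other control fish and 3.62, 1.88 and 3.84 FPKM in treated fish.

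**Figure D4:**
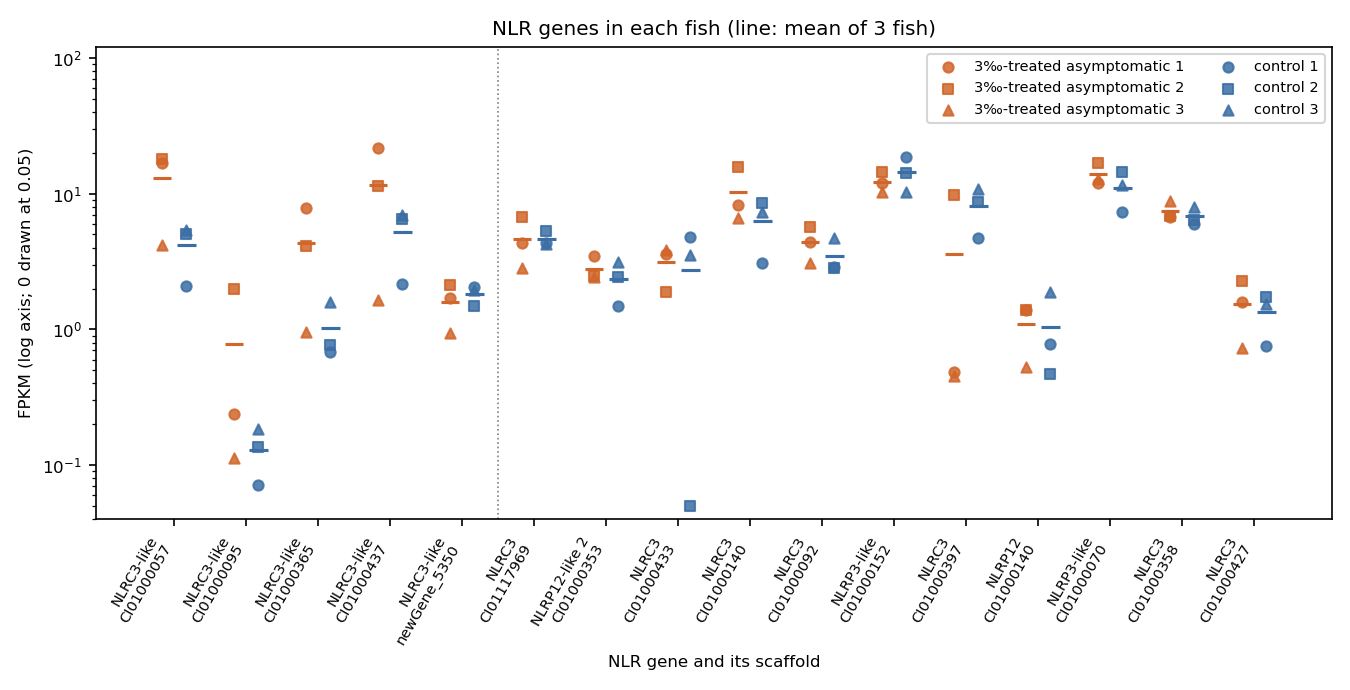
FPKM of the 16 NLR genes in each fish on a log axis, with 3‰-treated asymptomatic fish to the left of control fish at each gene, a marker per replicate number and a line at the mean of 3 fish. A dotted line separates the 5 NLRC3-like genes picked among genes raised by salinity from the 11 chosen on infected fish. At CI01000057, CI01000365 and CI01000437 treated replicates 1 and 2 lie above every control fish while replicate 3 does not.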

How the data were processed

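Gill RNA of 6 uninfected grass carp, 3 3‰-treated asymptomatic and 3 control, was taken from a series of 15 libraries. Per the labels and the study's methods RNA was extracted with TRIzol and sequenced in pairs of reads. The labels describe NEBNext reagents and the methods a TruSeq kit and a Trinity assembly. The authors deposited FPKM per gene, normalized by transcript length and library total. For the aligner, the counting and the genome build nothing is stated (not given in the sources used here). Of every file 1 line of annotation text was dropped. Low FPKM values showed no shared step of 1 read, so no count test was applied and depth is unknown, which leaves the precision of low values open.

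Genes averaging 0.5 FPKM or more over the 6 fish were tested with limma 3.58.1 under R 4.3.3 on the log2(FPKM + 1) scale, with 4 residual and 2.46 prior degrees of freedom. The added 1 understates the fold change of low genes. The fit was also run on simulated, normally distributed values with added changes larger than those of most DEGs here. That run therefore does not bear on moderate changes, on zeros or on unequal spread between the groups. Tables and figures were made with Python 3.11.15. Alternatives were the adjusted p, a fit over 5 groups, other filters, scalings and pseudocounts, a variance prior following mean expression, the replicate number as a block, and leaving out each fish. Fish are separate animals.

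The groups compared, the gene lists and the tests were chosen with earlier results of these data known. The rule for naming was: named genes that are DEGs, then NLR genes that are not DEGs by range and by the 3 with the largest absolute log2 fold change, then the 2 unnamed DEGs with the largest rise and the 2 with the largest fall without overlap, and named genes with an adjusted p below 0.05. Other NLR genes with values, and the unnamed genes with an adjusted p below 0.05, were added after their values were seen. The names given here were taken only from the written text of the paper and used for 16 NLR genes. The text also names newGene_4697 and newGene_9152, in infected fish. The methods describe a separate assembly for those fish, so their numbers may not mean the same genes here, and both were left out. The design had also foreseen families for interferon response, antigen processing, chemokines, claudins and others, and cell type markers. The identifiers of those genes are named only in figure images of the paper. Lists first read from those images were dropped after a first look at the results, with the values of their genes seen. They are not reported here. Of the identifiers, 0 matched the reference gene table of another assembly.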

Additional observations from a re-analysis of the deposited data

How the results depend on the processing

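With the adjusted p, 2 DEGs were up-regulated, 0 were down-regulated, and 0 NLR genes passed. Median-ratio scaling gave 673 down-regulated DEGs, and quantile normalization 738 up-regulated and 750 down-regulated. The fit over 5 groups passed 1 NLR gene in each direction, CI01000365 up and CI01000397 down. Leaving out 1 fish gave 1279 to 3466 DEGs, 944 to 2413 up-regulated and 309 to 1053 down-regulated, with the highest of each without control replicate 3. It gave 0 to 3 up-regulated and 0 to 1 down-regulated NLR genes. Genes without overlap numbered 6665 to 10939 with 5 fish, where fewer fish have to be separated, against 5144 with 6, and 7750 without treated replicate 3 and 10939 without control replicate 3. The log2 fold change of newGene_5350 was between -0.30 and 0.038 with a fish left out and changed sign without treated replicate 3. The report gives 18 tested genes with their own log2 fold change or adjusted p below 0.05. Of these, 8 kept their direction and call by fold change and unadjusted p under every alternative other than the adjusted p. They include the genes at CI01000019 and CI01000039, whose adjusted p did not stay below 0.05 under all of them. The cause of these changes was not tested. Deviations from the group means of fish with the same replicate number correlated at -0.10, 0.19 and 0.15. Whether the replicate numbers pair the fish was not tested. A replicate block gave 1749 DEGs, 1263 up-regulated and 486 down-regulated, and an adjusted p below 0.05 in 0 genes, with 0.1 for the genes at CI01000019 and CI01000039. All other counts of DEGs were within 1.5 times those reported. Depth limits low values most, but by how much is unknown without read counts.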
